A study of Saccharomyces cerevisiae with 13 samples.

Results

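The genes described here are the DAL and DUR genes of Saccharomyces cerevisiae, which serve the uptake and breakdown of allantoin and urea. The rule named 10 genes, and each was represented by its annotated probe set with the highest mean over the 13 arrays. The annotation named a probe set for 9 of them, 9 of the 5449 genes measured. DUR1,2, the urea amidolyase gene, was matched to no annotated probe set and was not analysed here. The 9 probe sets were 1774012_at (DAL1, YIR027C), 1774323_at (DAL2, YIR029W), 1774321_at (DAL3, YIR032C), 1779095_at (DAL4, YIR028W), 1771702_at (DAL5, YJR152W), 1771557_at (DAL7, YIR031C), 1771154_at (DAL81, YIR023W), 1772635_at (DAL82, YNL314W) and 1778128_at (DUR3, YHL016C).

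Allantoin is a nitrogen-rich purine waste product that yeast uses when better nitrogen sources run short. Allantoinase and allantoicase open it to allantoate and ureidoglycolate, ureidoglycolate lyase releases glyoxylate and urea, and urea amidolyase breaks urea down to ammonia and carbon dioxide. Many of the enzyme and transporter genes are known to be repressed in rich nitrogen by the GATA factor system (nitrogen catabolite repression). Many are also known to be induced by allophanate, an intermediate of urea breakdown, through Dal81 and Dal82. Neither statement is meant for the regulator genes DAL81 and DAL82.

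The arrays compared BY4741, a laboratory strain of mating type a that carries deletions of HIS3, LEU2, MET15 and URA3, after treatment in saturated YPGE culture (glycerol and ethanol as carbon sources, 30°C). The treated groups received 0.05 mM TFM, a lampricide nitrophenol known as an uncoupler of respiration, for 1, 2 or 4 h, with 2 arrays each. Their controls received 2% isopropanol for 1, 2 or 4 h, with 2, 1 and 2 arrays, and 2 time zero arrays came from just before treatment, although their agent label also reads isopropanol. The labels state no isopropanol level for the TFM arrays. They call the RNA samples independent without naming separate cultures, so a p-value covers no more than the variation among the extracts, part of which can be technical. Every level below is a log2 RMA value, a probe set summary after the authors' normalization to a common distribution, so a change is relative to the rest of the transcriptome and a level is compared only with the same gene on other arrays. Every difference is a limma estimate on the log2 scale with its standard error, and a gene passed when its Benjamini-Hochberg adjusted p over all 5449 genes was under 0.05.

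Across the arrays as a whole, replicates correlated at Pearson r from 0.992 to 0.998 over genes, and the median standard error of a difference was 0.095 at 1 and 4 h and 0.12 at 2 h. The 17 tag control probe sets, taken as background, reached a mean of at most 5.94. The lowest value of any member was 7.42. Of all genes, 72 had a mean at or under the highest tag, so lying above it sets few genes apart. It does not decide whether DAL4 and DAL1, the dimmest members, were detected. The excess of 3 prime over 5 prime signal, averaged over 7 yeast control transcripts as a measure of RNA integrity, was 1.63 and 1.40 log2 units on the TFM 4 h arrays, against 1.15 and 1.13 on the isopropanol 4 h arrays. Its part in the results was not tested beyond a fit that held it as a covariate, in which 6 of the 9 genes passed at 4 h. Over all genes 3539 passed at 4 h without the covariate. The alternatives that left out no array, the covariate fit among them, gave 2448 to 3735. Some of these used other controls, and 1 left out the dimmest genes, so the range is no background for a single fit. The count of the covariate fit alone is not given here, so its 6 of 9 has no background of its own.

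After 4 h of TFM, 7 of the 9 measured genes rose and 1 fell relative to isopropanol. The rises were in the urea transporter gene DUR3 (4.42-fold), the regulator gene DAL81 (2.53-fold), the allantoate permease gene DAL5 (1.87-fold), DAL7 (1.80-fold), DAL3 (1.76-fold), DAL2 (1.44-fold) and DAL82 (1.30-fold). DAL4, the allantoin permease gene, fell to 78.2% of its isopropanol level, and DAL1, the allantoinase gene, did not pass. Of all genes 64.9% passed at 4 h, 30.9% as higher and 34.0% as lower, so a pass at this time was common. The median difference of the 9 genes was 0.81, beside -0.01 over all genes. Both TFM 4 h arrays lay above all 11 other arrays for 7 of the 9 genes and below all of them for DAL4, beside 27.4 and 29.9% of all genes. In bulk RNA, fewer cells with a transcript and less transcript per cell cannot be told apart.

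**Figure D1:**
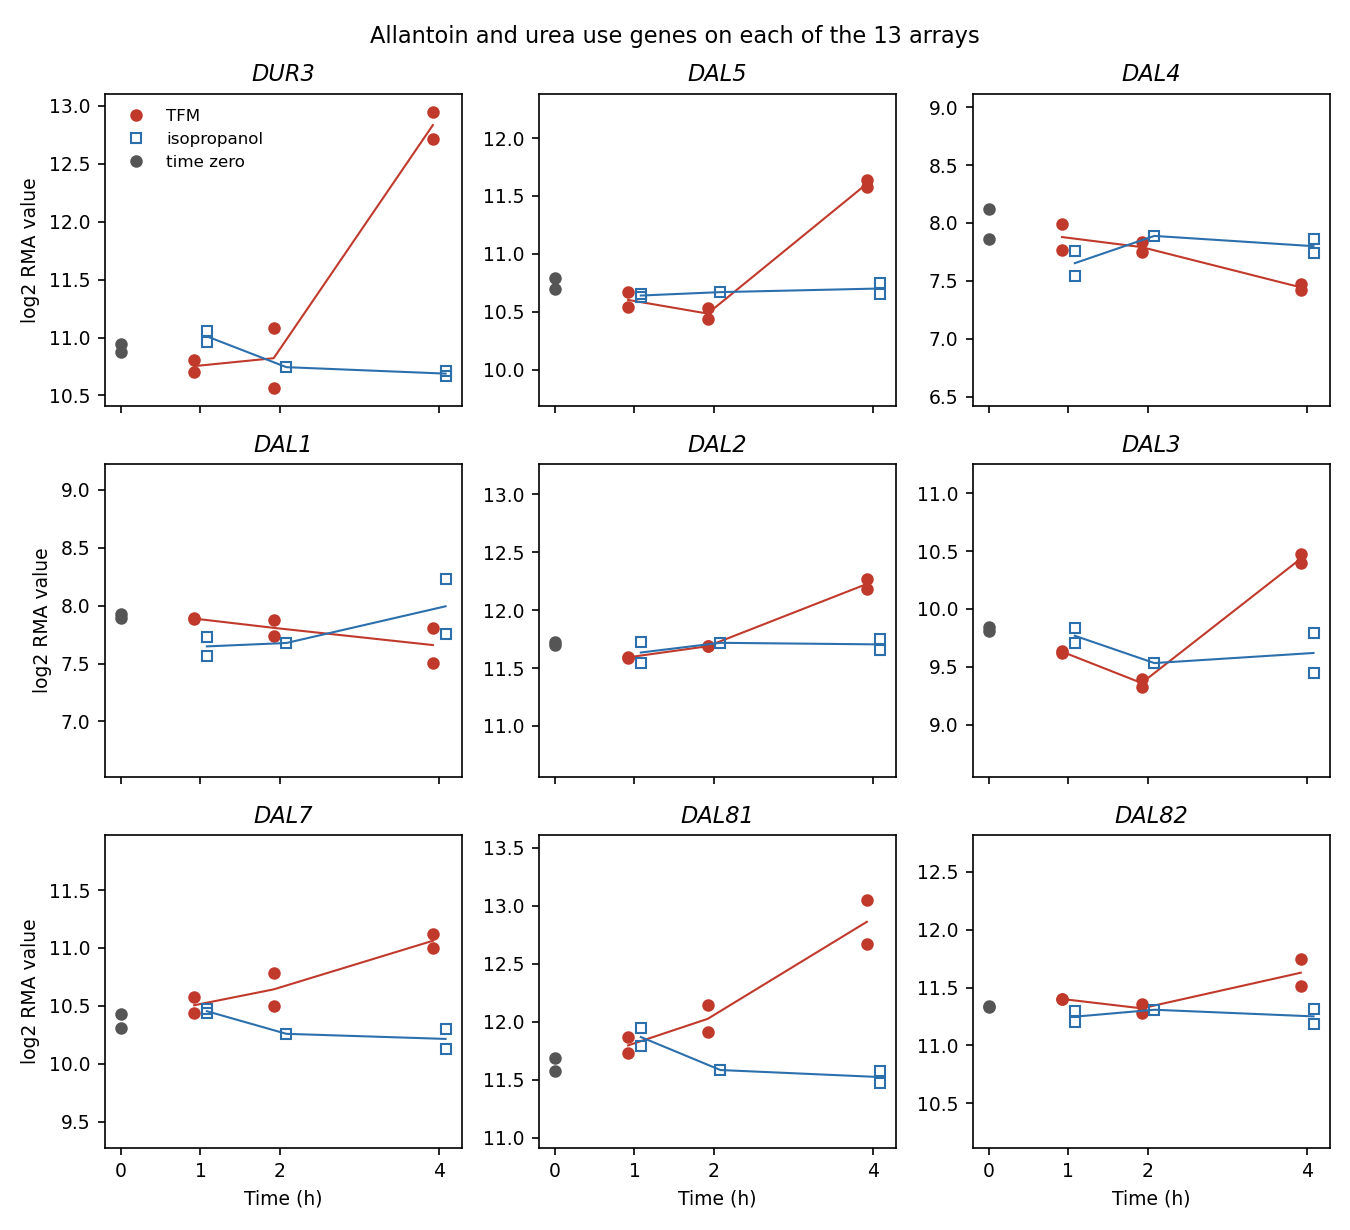
Level of each of the 9 genes on the 13 arrays (log2 RMA value, same span on every panel) against time in hours; filled red circles are TFM, open blue squares isopropanol and grey circles time zero, and lines join group means. The 2 TFM 4 h arrays lie above all 11 other arrays for 7 genes and below all of them for DAL4. For DAL1, replicate 1 lies among them (7.81) and replicate 2 below them (7.51).

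The transporters spanned the widest range of responses. DUR3 encodes the plasma membrane transporter that takes up urea and also polyamines. Its level was 10.70 and 10.81 at 1 h of TFM, 10.56 and 11.08 at 2 h and 12.72 and 12.95 at 4 h. The isopropanol arrays stood at 11.06 and 10.96 at 1 h, 10.74 at 2 h and 10.67 and 10.71 at 4 h, and time zero at 10.87 and 10.94. Only the TFM 4 h arrays were set apart, above every other array by more than 1 log2 unit, while the TFM 2 h arrays straddled the isopropanol array. The difference at 4 h was 2.15 ± 0.15 (limma adjusted p = 2.38e-06, 95% interval 1.82 to 2.47), the 24th largest rise among all 5449 genes.

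DAL5 encodes the permease for allantoate, which also carries some dipeptides. It measured 10.67 and 10.54 at 1 h of TFM, 10.43 and 10.53 at 2 h and 11.58 and 11.63 at 4 h. With isopropanol it measured 10.63 and 10.66 at 1 h, 10.67 at 2 h and 10.65 and 10.75 at 4 h, and 10.70 and 10.79 at time zero. The rise at 4 h, 0.90 ± 0.075 (limma adjusted p = 6.5e-06), came after the 2 lowest values of the series, those of TFM at 2 h.

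DAL4, the allantoin permease gene, moved the other way and lay near the bottom of the array, its mean exceeding that of 4.09% of the genes. It stood at 7.99 and 7.77 at 1 h of TFM, 7.83 and 7.75 at 2 h and 7.42 and 7.47 at 4 h. Isopropanol gave 7.55 and 7.76 at 1 h, 7.89 at 2 h and 7.74 and 7.86 at 4 h, and time zero gave 7.86 and 8.12. Both TFM 4 h values were below all others, but the lowest isopropanol value, at 1 h, was close to them. DAL4 fell by 0.36 on the log2 scale at 4 h (SE 0.11, limma adjusted p = 0.0189). The call was lost without TFM 4 h replicate 1 (-0.33, adjusted p = 0.0803), without isopropanol 4 h replicate 2 (-0.30, adjusted p = 0.1) and with the RNA integrity measure as a covariate (-0.20, adjusted p = 0.402), while against time zero the difference was -0.54 (adjusted p = 0.00202).

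Of the 4 enzyme genes measured, DAL2, DAL3 and DAL7 rose and DAL1 did not pass. DAL1, for allantoinase, catalyses the opening of the allantoin ring and was, like DAL4, a dim gene on the array, with a mean above that of 4.28% of the genes. Its values were 7.90 and 7.88 at 1 h of TFM, 7.88 and 7.74 at 2 h and 7.81 and 7.51 at 4 h, against 7.57 and 7.73, 7.68, and 7.76 and 8.23 in isopropanol at 1, 2 and 4 h and 7.89 and 7.93 at time zero. The TFM and isopropanol arrays overlapped at 4 h, where isopropanol replicate 2 held the highest value of the series. The difference of -0.33 ± 0.15 missed the threshold (limma adjusted p = 0.0723). The gene was called in 4 of 22 alternatives, namely quantile normalization (-0.38, adjusted p = 0.00851), cyclic loess (-0.40, adjusted p = 0.0086), and leaving out TFM 4 h replicate 1 (-0.49, adjusted p = 0.0369) or isopropanol 4 h replicate 1 (-0.57, adjusted p = 0.00497).

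DAL2 encodes allantoicase, which splits allantoate into ureidoglycolate and urea. It read 11.59 on both arrays at 1 h of TFM, 11.69 on both at 2 h and 12.18 and 12.27 at 4 h, against 11.72 and 11.55, 11.72, and 11.66 and 11.75 in isopropanol at 1, 2 and 4 h and 11.73 and 11.70 at time zero. The TFM arrays of 1 and 2 h lay inside the isopropanol range and those of 4 h above it. The difference of the group means at 4 h was 0.52 ± 0.075 (limma adjusted p = 0.000208).

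DAL3 encodes ureidoglycolate lyase, the step that yields glyoxylate and a further urea. It read 9.64 and 9.62 at 1 h of TFM, 9.32 and 9.40 at 2 h and 10.48 and 10.39 at 4 h. In isopropanol it read 9.70 and 9.83, 9.53, and 9.45 and 9.79 at 1, 2 and 4 h, and at time zero 9.81 and 9.84. As for DAL5, the TFM 2 h arrays were the lowest of the series and the TFM 4 h arrays the highest. The rise at 4 h was 0.81 ± 0.10 (limma adjusted p = 9.07e-05).

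DAL7 encodes a malate synthase, which condenses glyoxylate with acetyl-CoA. It stood at 10.44 and 10.57 at 1 h of TFM, 10.50 and 10.78 at 2 h and 11.12 and 11.00 at 4 h, against 10.47 and 10.43, 10.26, and 10.13 and 10.30 in isopropanol and 10.31 and 10.43 at time zero. From 2 h on, the TFM arrays were above the isopropanol arrays, and at 4 h the difference was 0.85 ± 0.11 (limma adjusted p = 8.16e-05). With the RNA integrity covariate it was 0.55 (adjusted p = 0.0088). MLS1, the paralog that encodes the malate synthase of the glyoxylate cycle, rose by 0.28 ± 0.061 (limma adjusted p = 0.0028), and the difference between these paralogs was not tested.

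The regulators differed in size of response. DAL81 encodes a zinc cluster activator that serves both the allantoin and the GABA genes. It stood at 11.73 and 11.86 at 1 h of TFM, 11.91 and 12.14 at 2 h and 13.05 and 12.67 at 4 h, against 11.94 and 11.79, 11.58, and 11.58 and 11.47 in isopropanol and 11.69 and 11.57 at time zero. The group means of TFM increased from 1 to 4 h, and the rise over isopropanol at 4 h was 1.34 ± 0.13 (limma adjusted p = 1.7e-05). With the RNA integrity covariate it was 0.92.

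DAL82 encodes the activator specific to the allantoin genes. Its values were 11.40 on both arrays at 1 h of TFM, 11.36 and 11.28 at 2 h and 11.74 and 11.51 at 4 h, against 11.30 and 11.20, 11.31, and 11.19 and 11.31 in isopropanol and 11.33 and 11.34 at time zero. This was the narrowest range of the 9 genes, 0.56 log2 units over the 13 arrays. The rise at 4 h, 0.38 ± 0.086, passed (limma adjusted p = 0.00352) and was lost with the RNA integrity covariate (0.30, adjusted p = 0.12).

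**Figure D2:**
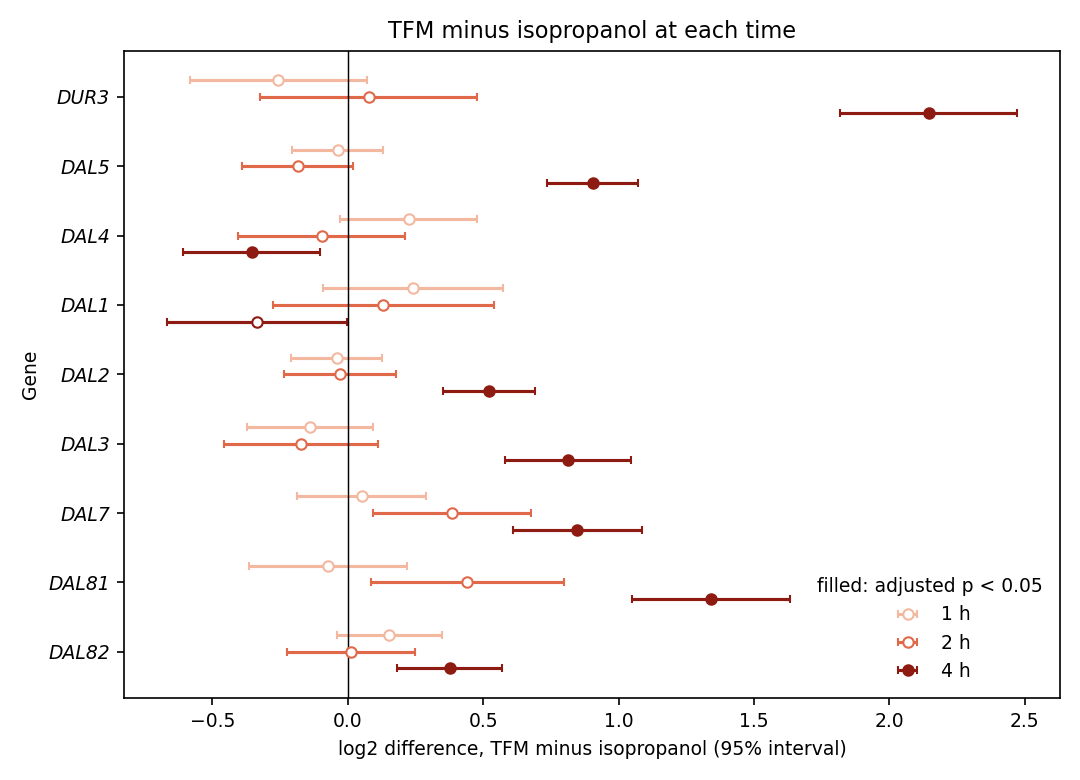
Difference between TFM and isopropanol for each gene (x axis, log2, with 95% intervals from limma) at 1, 2 and 4 h; filled points passed at an adjusted p under 0.05. No point at 1 or 2 h is filled, and at 4 h 8 of 9 are, DUR3 farthest to the right at 2.15 and DAL4 to the left at -0.36.

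At the earlier times the genes gave no call. At 1 h of TFM 0 of 9 passed in limma, where 1.23% of all genes did (0.807% as higher and 0.422% as lower), and 0 had an unadjusted p under 0.05. The differences ran from -0.26 ± 0.15 for DUR3 to 0.24 ± 0.15 for DAL1. Their intervals at 1 h, -0.58 to 0.07 and -0.09 to 0.57, did not reach the differences of the same genes at 4 h, 2.15 and -0.33. Changes within these intervals remain possible at 1 h. At 2 h 0 of 9 passed where 14.1% of all genes did (8.30% as higher and 5.84% as lower), and the unadjusted p was under 0.05 for 2, DAL81 (0.44 ± 0.16, limma adjusted p = 0.0945) and DAL7 (0.38 ± 0.13, limma adjusted p = 0.0774).

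Isopropanol had a single array at 2 h, and other controls were also used. Against time zero, 2 of 9 genes passed at 2 h of TFM, where 24.1% of all genes did (11.7% as higher and 12.4% as lower). Both were lower, DAL3 (-0.46, limma adjusted p = 0.0131) and DAL5 (-0.26, limma adjusted p = 0.0339). Against all 5 isopropanol arrays 4 of 9 passed, where 30.6% of all genes did (15.5% as higher and 15.1% as lower), DAL3 (-0.30) and DAL5 (-0.19) as lower and DAL81 (0.35) and DAL7 (0.32) as higher. These controls come from other times than the TFM arrays as well as being more numerous, and the part of each was not tested. DAL7 also passed without TFM 2 h replicate 1 (0.52, adjusted p = 0.0247), and DAL81 without either TFM 4 h array (0.44, adjusted p = 0.0448), where only the variance estimate changes.

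The effect of TFM at 4 h was also set against that at 1 h within the same model. It was higher at 4 h than at 1 h for 6 genes and lower for 2. Of all genes 49.3% passed this test, 22.9% in the positive and 26.4% in the negative direction. This was 2684 genes, and 1622 to 2788 passed in the alternatives that left out no array. DUR3 had the largest gain, 2.40 ± 0.21 (limma adjusted p = 4.59e-05), followed by DAL81 at 1.41 ± 0.18, DAL3 at 0.95 ± 0.15, DAL5 at 0.94 ± 0.11, DAL7 at 0.80 ± 0.15 and DAL2 at 0.56 ± 0.11. For DAL4 the change was -0.58 ± 0.16 (adjusted p = 0.0131) and for DAL1 -0.57 ± 0.21 (adjusted p = 0.0456). Their effects at 1 h were positive without passing, 0.23 for DAL4 and 0.24 for DAL1, and at 4 h negative, -0.36 and -0.33. The isopropanol means at 1 h, 7.65 for both genes, lay under those of time zero, 7.99 for DAL4 and 7.91 for DAL1. The call of DAL1 held in 7 of 20 other settings and the value was -0.34 without isopropanol 4 h replicate 2. DAL4 lost the call without replicate 1 of TFM 1 h (-0.47, adjusted p = 0.0537) or of isopropanol 1 h (-0.47, adjusted p = 0.0539) and with the covariate (-0.41, adjusted p = 0.185). DAL82 did not pass at 0.22 ± 0.12 (adjusted p = 0.154), but did without TFM 4 h replicate 2 (0.34, adjusted p = 0.0299).

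Isopropanol without TFM gave no call in these genes. Against time zero 0 of 9 passed in limma at 1, 2 and 4 h, as did 0% of all genes. With a block on replicate number over the arrays without TFM, 83 genes were called at 1 h, none of them in the 9. Over all genes an unadjusted p under 0.05 was reached by 367 at 1 h, 111 at 2 h and 67 at 4 h. Of the 9 it was reached by 1 at 1 h, DAL4 (-0.34 ± 0.11), by 1 at 2 h, DAL3 (-0.29 ± 0.13), and by 0 at 4 h. The largest shift at 4 h was that of DUR3, -0.22 ± 0.15, opposite in sign to its difference between TFM and isopropanol. Set against time zero in place of isopropanol, TFM at 4 h gave 7 genes as higher and 1 as lower, where 63.8% of all genes passed (30.0% as higher and 33.8% as lower). The differences were 1.93 for DUR3, 1.23 for DAL81 and 0.86 for DAL5.

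Position on the chromosome was not used by the rule. Of the measured genes 6 lie on chromosome IX, and 5 of these, DAL1, DAL4, DAL2, DAL7 and DAL3, form the DAL cluster, which is interrupted in the RefSeq R64 annotation by DCG1 alone. DAL81 lies on one side of the cluster, with INA22, MND2 and YVH1 between them. Within the cluster the difference at 4 h of TFM changed sign along the row: DAL1 and DAL4 were at -0.33 and -0.36, DAL2 at 0.52, DCG1 at -0.77 ± 0.14, DAL7 at 0.85 and DAL3 at 0.81. DCG1, a gene of unknown function known to be sensitive to nitrogen catabolite repression, fell (limma adjusted p = 0.000956), with 7.95 and 7.82 on the TFM 4 h arrays, against 8.40 and 8.91 in isopropanol. The genes with negative differences were also the dimmest of the row. DAL1 and DAL4 had means of 7.81 and 7.77, and DCG1 did not exceed 8.91 on any array. The means of DAL3, DAL7 and DAL2 were 9.76, 10.52 and 11.76. DAL1 did not pass, and the call of DAL4 held in 19 of 22 alternatives. The part of low signal in the change of sign was not tested.

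The flanking genes moved in both directions too. YVH1, a phosphatase gene whose product acts in ribosome assembly, fell by 1.32 on the log2 scale (SE 0.11, limma adjusted p = 6.71e-06), and INA22, an assembly factor of the mitochondrial ATP synthase, fell by 0.57. On the far side MGA2, a membrane-bound activator of the fatty acid desaturase gene, rose by 1.30 ± 0.11 and LYS1 of lysine synthesis rose by 0.68 ± 0.094. Over the 12 genes from DAL81 to LYS1, 6 rose, 4 fell and 2 did not pass (DAL1 and MND2), beside 30.9% of all genes that rose and 34.0% that fell.

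**Figure D3:**
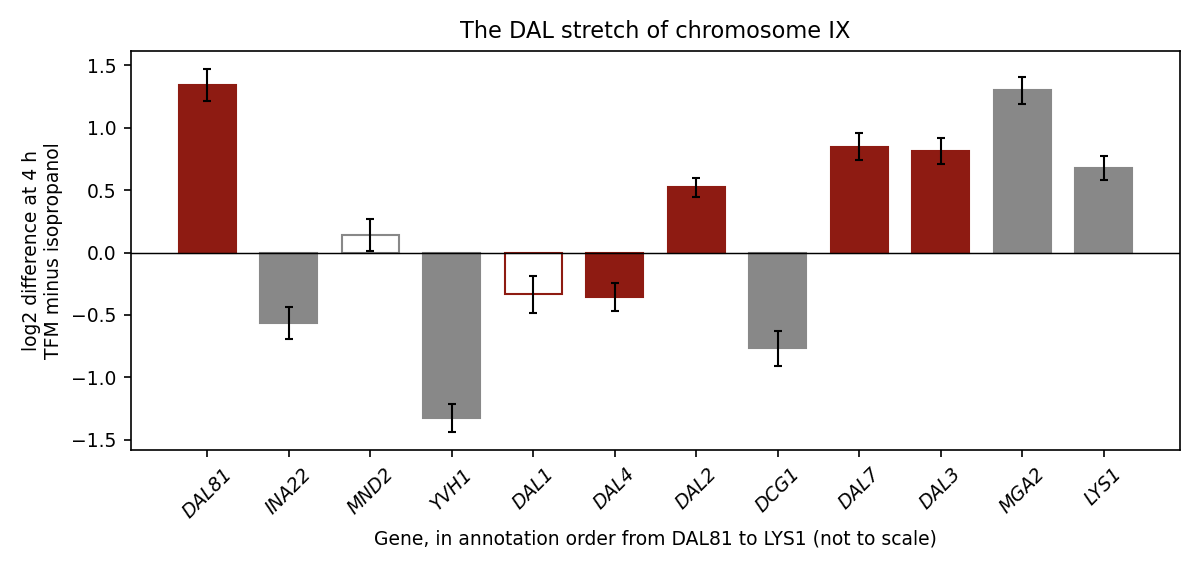
Difference between TFM and isopropanol at 4 h (y axis, log2, bars with limma standard errors) for the 12 genes from DAL81 to LYS1 in their order on chromosome IX, spaced evenly; red bars are allantoin genes, grey bars their neighbours, and open bars did not pass. Bars point up at both ends, from DAL81 (1.34) to MGA2 (1.30) and LYS1 (0.68), and down at INA22 (-0.57), YVH1 (-1.32), DAL1, DAL4 and DCG1 (-0.77).

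The GATA factor genes, known to govern many of the DAL and DUR genes, all rose at 4 h of TFM, where 30.9% of all genes did. GAT1, an activator, had 13.69 and 13.44 in TFM, against 11.98 and 12.22 in isopropanol, a difference of 1.47 ± 0.12 (limma adjusted p = 5.36e-06). GLN3, the other activator, had 12.27 and 12.07 in TFM, against 10.98 on both isopropanol arrays (1.19 ± 0.090, limma adjusted p = 3.98e-06). The genes of the repressors rose as well, DAL80 by 1.12 ± 0.11 and GZF3 by 0.81 ± 0.070, and URE2, whose product holds Gln3 in the cytoplasm, by 0.24 ± 0.081 (limma adjusted p = 0.0262). Transcripts of activators and repressors of the DAL genes were thus higher on the same arrays. At 2 h GZF3 was lower (-0.53 ± 0.085, limma adjusted p = 0.00563) and URE2 higher (0.37 ± 0.099, adjusted p = 0.0392), and the other 3 did not pass.

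Genes for other nitrogen sources were counted by list. Of the 12 permease genes for nitrogen sources 9 rose at 4 h and 0 fell, with a median of 0.58, MEP2, an ammonium permease, leading at 2.51 ± 0.23 (limma adjusted p = 1.2e-05). BAP3 (0.60 ± 0.083), MEP3 (0.89 ± 0.12) and AGP1 (0.56 ± 0.079) had the next smallest p-values, and MEP1, at 0.0053 ± 0.091, did not pass. Of 11 genes for the use of arginine, proline, GABA and asparagine 7 rose and 3 fell, with a median of 0.58. Among them were PUT1, proline oxidase (0.99 ± 0.070), and the regulator genes UGA3 (0.82 ± 0.087) and PUT3 (1.02 ± 0.12). CAR2, the ornithine transaminase gene, rose by 0.49 ± 0.064, and CAR1, arginase, whose reaction feeds urea to the amidolyase, rose by 0.62 ± 0.12.

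In ammonia and glutamate metabolism 3 of 5 genes rose and 2 fell, GDH3, a glutamate dehydrogenase, standing at 1.35 ± 0.083 and GLT1, glutamate synthase, at -0.60 ± 0.10. For the use of glyoxylate, the carbon end product of allantoin, 2 of 5 rose, MLS1 and ICL1 (0.41 ± 0.091), and 1 fell, the glyoxylate reductase gene GOR1 (-0.63 ± 0.095). All these counts stand beside 30.9% of genes that rose and 34.0% that fell. At 1 h the permease list had 1 fall, MEP1 (-0.62 ± 0.091, limma adjusted p = 0.0292). At 2 h it had 2, MEP1 (-1.11 ± 0.11) and GAP1 (-0.70 ± 0.19), and GLN1 (-0.69 ± 0.11) and GDH1 (-0.51 ± 0.071) fell in ammonia metabolism.

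**Figure D4:**
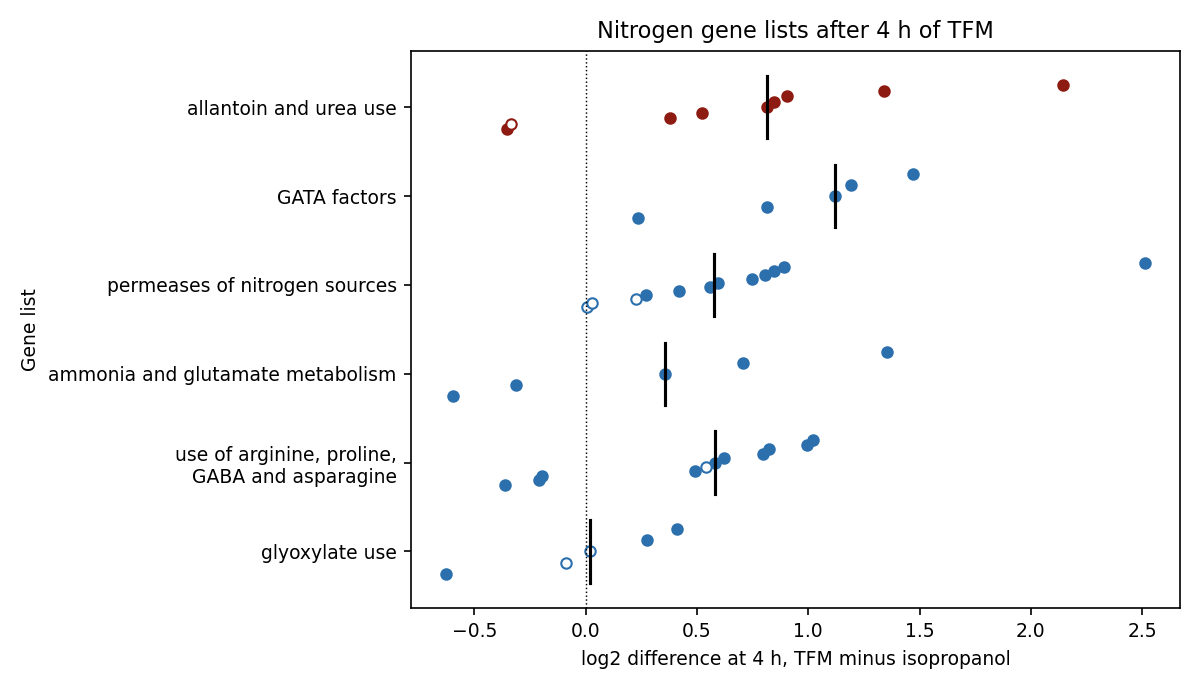
Difference between TFM and isopropanol at 4 h (x axis, log2) for each gene of the allantoin and urea list (red) and of 5 other nitrogen lists (blue); filled points passed at an adjusted p under 0.05 and vertical bars are medians. The medians are 0.81 for allantoin and urea use, 1.12 for GATA factors and 0.018 for glyoxylate use, and the farthest points are MEP2 at 2.51 and DUR3 at 2.15.

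The mean course of the 7 measured enzyme and transporter genes, each centred on its own mean, was set against every other gene over the 13 arrays. DMA1, a ubiquitin ligase gene, came closest (Pearson r = 0.981), followed by GIS4 (0.980), RCH1 (0.978), the acetate transporter gene ADY2 (0.977) and GDH3 (0.974). These values describe a course dominated by the TFM 4 h arrays: without them, over 11 arrays, the same 5 genes had r from 0.511 to 0.735. Each of the 7 genes is itself part of the mean course, which raises its own r. The profiles were not scaled, so DUR3, with a range of 2.38 log2 units against 1.20 for DAL5, the next widest, weighed most. Over the 13 arrays DAL5 (0.976) and DUR3 (0.967) followed the mean course most closely, while DAL4 (-0.61) and DAL1 (-0.23) ran against it. Over the 11 arrays without TFM 4 h, r was 0.752 for DAL3, 0.640 for DAL5, 0.520 for DAL4 and 0.511 for DAL1. It was 0.457 for DUR3, 0.208 for DAL7 and 0.171 for DAL2. A gene's own share in the mean course raises its r, so these positive values are no measure of likeness among the 7. These arrays share a normalization and 7 groups, so no p is given.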

How the data were processed

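The authors deposited log2 RMA values of 13 Affymetrix-type yeast arrays, RMA being the only tool in the submitters' processing notes, with no version given in the sources used here. Among its 5900 probe sets 5498 have 1 annotated gene, 0 have several, 218 have none and 184 are controls. Symbols were updated through RefSeq gene IDs (R64), and the probe set of highest mean stood for the 47 genes with several, leaving 5449 genes. One limma 3.58.1 model (R 4.3.3) with 7 group means was fitted to all arrays with eBayes. Tests are two-sided, adjusted by Benjamini-Hochberg over all genes. The 1 array of isopropanol at 2 h took its variance from the pooled estimate. All 9 measured members are named, with up to 4 genes of smallest p at 4 h per list and all GATA, chromosome IX and relative genes open to naming; CAR1, MEP1, GAP1 and GDH1 were named beyond this rule, after their values were seen. The members and lists were chosen with earlier results of these data known. The number of arrays limits the precision. Figures were drawn with matplotlib 3.10.9.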

Additional observations from a re-analysis of the deposited data

Results flagged for a closer look

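For 8 genes the effect of TFM differed between 4 h and 1 h by limma's test of that difference (Benjamini-Hochberg adjusted). The difference was 2.40 for DUR3, 1.41 for DAL81, 0.95 for DAL3, 0.94 for DAL5, 0.80 for DAL7 and 0.56 for DAL2 on the log2 scale. It was negative for DAL1, at -0.57, and for DAL4, at -0.58, the neighbours at one end of the DAL cluster. Their effects were positive at 1 h, 0.24 and 0.23, without passing, and negative at 4 h, -0.33 and -0.36. Of all genes 49.3% passed the same test.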

How the results depend on the processing

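Every alternative setting that measured them left DUR3, DAL81, DAL5, DAL7, DAL2 (23 settings each) and DAL3 (22) past the threshold as higher at 4 h of TFM, DUR3 at 1.85 to 2.26. With single arrays left out, the count of the 9 genes past the threshold was 7 to 9 at 4 h, 0 at 1 h, 0 to 1 at 2 h, 6 to 8 for the effect at 4 h minus that at 1 h, and 0 for isopropanol at each time. Over all genes the count was 3145 to 3602 at 4 h and 2244 to 2771 for that effect. Of the 9, 2 passed at 2 h against time zero and 4 against the 5 pooled isopropanol arrays. Without the dimmest 25% of genes (DAL1, DAL3 and DAL4 among them) 5 of 6 passed for the effect at 4 h minus 1 h. Over all genes the alternatives that left out no array, this one among them, gave 1622 to 2788 calls for that effect. The share of this reduced set that passed is not given here, so the 5 of 6 has no background of its own.

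Signs turned only for differences that did not pass. Against time zero this was so at 1 h for DAL1 (-0.023), DAL4 (-0.11) and DAL81 (0.17), and at 2 h for DAL1 (-0.10), DUR3 (-0.086) and DAL82 (-0.015). Against all 5 isopropanol arrays it was so for DAL81 at 1 h (0.12) and for DAL2 (0.0095), DAL4 (0.033) and DUR3 (-0.0065) at 2 h, and at 2 h also for DUR3 (-0.073) and DAL82 (-0.030) with the RNA integrity covariate and for DAL82 (-0.0017) under cyclic loess. With single arrays left out, signs also turned for 4 genes at 1 h, whose lowest and highest differences were -0.13 and 0.047 for DAL2, -0.017 and 0.12 for DAL7, -0.10 and 0.027 for DAL5, -0.15 and 0.0017 for DAL81, and for 2 at 2 h, -0.18 and 0.33 for DUR3, -0.025 and 0.049 for DAL82.

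Replicate numbers are shared by the groups in the labels, which name no shared culture or day. Deviations of same-numbered arrays correlated at -0.47 to 0.60 over the 15 pairs of groups, so the numbers were not taken to pair the arrays. Among the groups without TFM they were positive, 0.27 for isopropanol 1 h with 4 h, and with time zero 0.43 for isopropanol 1 h and 0.60 for 4 h. With a replicate block 0 of 9 passed at 1 and 2 h and 8 at 4 h. For the effect at 4 h minus 1 h 7 passed and DAL1 missed (-0.57, adjusted p = 0.0614). All-gene shares for the 8 and 7 are not given, so they lack a background. With the numbers of TFM 1 h crossed, a setting chosen after seeing the data, 0 of 9 passed at 1 h. Over all genes the early counts were less settled: 67 at 1 h became 7 with the replicate block and 299 against all 5 isopropanol arrays, and 770 at 2 h became 487 and 1666. With single arrays left out they were 1 to 95 at 1 h and 382 to 893 at 2 h, so the all-gene shares at these times rest on few arrays. At 1 h the count was 1 without TFM 1 h replicate 1 or isopropanol 1 h replicate 2, 4 without the other array of either group or without either time zero array, and 27 without either TFM 4 h array. At 2 h it was 382 without TFM 2 h replicate 2 and 485 without either time zero array. The cause was not tested. A block over the 7 arrays without TFM gave isopropanol at 1 h 83 calls in place of 0, none in the 9.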

Other observations

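Relatives of the allantoin transporters and of Dal7 split in direction as well after 4 h of TFM. Of the 13 listed relatives 12 were measured, and 6 rose, 1 fell and 5 did not pass in limma, with a median difference of 0.18. Of all genes 30.9% rose and 34.0% fell. FUI1, a uridine permease gene of the Dal4 family, rose by 1.63 ± 0.079 (limma adjusted p = 6.65e-07) and THI72 of the same family by 0.99 ± 0.10, while FUR4, the uracil permease gene, was at -0.12 ± 0.11 and did not pass. In the Dal5 family YCT1, a cysteine transporter gene, rose by 1.37 ± 0.11, THI73 by 0.74 ± 0.11 and SEO1 by 0.50 ± 0.085, and TNA1, the nicotinic acid permease gene, fell by 0.56 on the log2 scale (SE 0.090). At 1 h FUR4 had been the only relative to pass, at 0.54 ± 0.11 (limma adjusted p = 0.0481), where 1.23% of all genes did. It stood at 10.33 and 10.27 in TFM, 9.68 and 9.83 in isopropanol and 10.04 and 10.10 at time zero. The isopropanol mean was thus itself under time zero, by 0.31 on the log2 scale (SE 0.11), without passing. At 2 h THI72 (0.64 ± 0.13) and SEO1 (0.45 ± 0.10) passed as higher, where 14.1% of all genes passed.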
